A study of Homo sapiens with 16 samples.

Results

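NSG1, STMN2, RIMS4, CADM4, CDH20, KIAA0319, PPM1L and GDF11 are 8 genes of the neuronal secretory, cytoskeletal, adhesion and signalling machinery, taken by symbol out of 56832 gene rows of a count table from small cell lung cancer lines. They were picked because their counts were higher in H69M cells with knockdown of EIF6 than in H69M control cells, so their change in H69M is given here as a description without a test. No numerical limit came with that choice, and all 8 passed the low-count filter that left 23100 genes. Knockdown and polysomal against cytoplasmic RNA in the line H69 did not enter the choice and were tested. Polysomal against cytoplasmic RNA in H69M, its difference between the lines, and H69M against H69 were tested as averages over both shRNAs. These averages weight both shRNAs equally, but they use the H69M libraries that chose the genes.

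H69 and H69M are cultured human small cell lung cancer cells grown in the same medium and labelled with normal treatment. Each line carried either shNTC, the control shRNA, with the genotype label WT, or sheIF6, with the label eIF6 knockdown. Cytoplasmic RNA came from a cell lysate made with cycloheximide, and polysomal RNA from sucrose fractions after polysome profiling. Line, shRNA and fraction gave 8 groups with 2 libraries each. Nothing in the labels says that the 2 libraries of a group are separate cultures. The p-values therefore reflect only how far these libraries spread, which may be technical. In bulk RNA, fewer cells with a transcript and less of it per cell cannot be told apart.

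EIF6 encodes a factor that holds the large ribosomal subunit apart from the small one. Small cell lung cancer is mostly a neuroendocrine tumour, whose cells share with neurons the machinery of regulated secretion and the neuronal cytoskeleton, and its cells can also take on a non-neuroendocrine state in which these genes are silenced and adhesion and mesenchymal genes are active. NSG1 sorts receptors in neuronal endosomes, STMN2 binds tubulin dimers in growing neurites, and RIMS4 is a short member of the RIM family of active zone proteins. CADM4 and CDH20 are cell surface adhesion molecules, KIAA0319 is a membrane glycoprotein studied in reading disability and neuronal migration, PPM1L is a membrane-bound protein phosphatase of the PP2C family, and GDF11 is a secreted ligand of the TGF-beta superfamily. GDF11 and PPM1L are not restricted to neurons.

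The stretches before the transcription start are shown for 4 of the genes, 3 that hold several GC boxes and CDH20, which holds none. RefSeq windows (build GRCh38.p14) were read for 6 of the 8 genes, with 10 start sites in all. Each was read over the 250 bases before the start, 5′ to 3′ on the gene's strand. No window of RIMS4 or STMN2 was read, so the counts below do not cover these genes. Capitals mark the GC box GGGCGG on either strand in NSG1 (chr4:4386852-4387101, plus strand), CADM4 (chr19:43639851-43640100, minus strand) and GDF11 (chr12:55742872-55743121, plus strand), with overlapping matches counted. In CDH20 (chr18:61333180-61333429, plus strand) they mark GGAATG on either strand, the core that TEAD factors bind.
NSG1: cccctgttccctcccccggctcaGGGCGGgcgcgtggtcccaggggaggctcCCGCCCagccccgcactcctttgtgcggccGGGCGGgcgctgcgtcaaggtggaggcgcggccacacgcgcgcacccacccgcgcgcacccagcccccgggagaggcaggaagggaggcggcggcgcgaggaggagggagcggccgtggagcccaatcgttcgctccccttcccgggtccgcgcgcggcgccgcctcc
CADM4: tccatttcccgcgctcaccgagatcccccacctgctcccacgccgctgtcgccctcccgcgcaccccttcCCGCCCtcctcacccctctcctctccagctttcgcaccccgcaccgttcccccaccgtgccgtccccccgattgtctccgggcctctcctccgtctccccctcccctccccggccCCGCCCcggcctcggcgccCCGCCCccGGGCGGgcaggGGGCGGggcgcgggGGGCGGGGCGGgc
GDF11: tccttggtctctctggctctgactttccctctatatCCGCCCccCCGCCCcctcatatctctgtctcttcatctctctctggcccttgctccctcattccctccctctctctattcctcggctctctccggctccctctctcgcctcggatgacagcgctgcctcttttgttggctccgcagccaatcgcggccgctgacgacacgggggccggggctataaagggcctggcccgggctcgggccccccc
CDH20: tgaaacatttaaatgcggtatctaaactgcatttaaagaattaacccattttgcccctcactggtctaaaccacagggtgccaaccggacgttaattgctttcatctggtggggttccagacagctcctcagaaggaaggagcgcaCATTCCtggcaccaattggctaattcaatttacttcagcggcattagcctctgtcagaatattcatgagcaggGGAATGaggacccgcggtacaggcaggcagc

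CADM4 held 7 GC boxes, a number that 1.12% of all 35114 windows of this length reached. NSG1 held 3, GDF11 2, and the KIAA0319 and PPM1L windows with a box held 1 each, whereas the CDH20 window held none; 42.6% of all windows held at least 1. Of the 10 windows, 6 (NSG1 with both of its start sites, CADM4, GDF11 and 1 each of KIAA0319 and PPM1L) had a GC content of at least 50% and a ratio of observed to expected CpG of at least 0.6, against 45% of all windows. CDH20 had a GC content of 48% and a ratio of 0.486, and the lowest values were in a second start of PPM1L, at 34% and 0. GGAATG was present in CDH20 (2 matches) and GDF11 and in 11.9% of all windows. The left and right parts of the REST element were searched as TCAGCACC and GGACAG on both strands, and neither was present in any of the 10 windows (1.32% and 17.2% of all windows held them). Among the E-box letters, CAGATG was present in CDH20 and in a downstream start of PPM1L (12.2% of all windows) and CAGCTG in none (14%). The letters GTGGGAA of RBPJ, TGACGTCA of CREB and the SMAD palindrome GTCTAGAC were in none of the 10 windows either, and in 5.43%, 1.65% and 0.182% of all windows. No single one of these letter strings was present before all 6 genes.

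Library totals ran from 36005326 to 87269772 counts, and the H69M sheIF6 cytoplasmic libraries were the deepest. Levels are counts scaled to a library of fixed size (CPM) on the TMM-scaled library size. This scaling adjusts for depth and composition on the assumption that most genes are unchanged. EIF6 itself was at 65.0 to 67.7 CPM with sheIF6 against 112 to 116 with shNTC in H69 cytoplasmic RNA, and at 220 to 234 against 389 to 424 in polysomal RNA. In H69M it was at 161 and 96.3 CPM against 204 and 165 in cytoplasmic RNA, and at 86.3 and 136 against 323 and 202 in polysomal RNA. Every sheIF6 library thus lay below both controls of its line and fraction.

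The H69M libraries numbered 2 stood apart from those numbered 1 in 1 respect that touches these genes. By the median, they held more RNA of genes that H69 expresses and H69M nearly lacks. Over 14 such genes the median level in the H69M cytoplasmic libraries was 0.0637 and 2.23% of the H69 level with shNTC (replicates 1 and 2) and 0.106 and 2.05% with sheIF6. In polysomal RNA, over 4 such genes, it was 0.0598 and 7.05% with shNTC and 0.415 and 4.64% with sheIF6. INSM1, a neuroendocrine transcription factor, followed the same order, with 1.15 and 28.4 CPM in the cytoplasmic shNTC and 2.30 and 28.4 CPM in the sheIF6 libraries of H69M. In cytoplasmic RNA these levels followed the replicate number more than the shRNA. In polysomal RNA they differed with the shRNA too, and INSM1 was at 6.38 and 256 CPM with shNTC and 23.9 and 155 CPM with sheIF6. Other neuroendocrine markers did not all follow this order in H69M. With shNTC, SCG2 was at 163 and 75.3 CPM in cytoplasmic and 269 and 108 CPM in polysomal RNA. With sheIF6, GRP was at 0.465 and 0.485 CPM and SRRM4 at 0.0477 and 0 CPM in cytoplasmic RNA. The 14 and 4 genes were picked for a low level in at least 1 H69M library, so that choice sets the lowest shares in part. Applied to the H69 levels of the 8 genes, the share of the sheIF6 libraries numbered 1 would give at most 0.484% of the measured cytoplasmic level and 4.23% of the polysomal level, both in NSG1. In those numbered 2 it would give at most 10.4% and 27%, again in NSG1. In the shNTC libraries numbered 2 it reached or passed the whole NSG1 level (154% in cytoplasmic and 216% in polysomal RNA) and came to 93.5% of STMN2 and 83% of RIMS4 in polysomal RNA. The part of this difference in the results was not tested. Values without the 4 H69M libraries numbered 2 stand beside those results that they move most.

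In H69M, all 8 genes were higher in both sheIF6 libraries than in both shNTC libraries, in each fraction. That was the choice, and 20.4% of all genes tested were likewise higher without overlap in cytoplasmic RNA (19.3% were lower without overlap) and 15.9% in polysomal RNA (16.7% lower). The ratio of the group means ran from 2.03 (GDF11) to 12.7 (RIMS4) in cytoplasmic RNA and from 2.68 (CADM4) to 11.2 (RIMS4) in polysomal RNA. The fitted log2 change had a median of 2.59 in cytoplasmic RNA and 1.92 in polysomal RNA, against 0 and -0.01 over all genes tested. In the fit across all genes 0.156% of genes passed an adjusted p of 0.05 in H69M cytoplasmic RNA and 0.0649% in polysomal RNA.

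NSG1, the endosomal sorting protein of neurons (chr4:4348140-4419058, plus strand), was nearly absent from H69M controls. Its cytoplasmic level was 0.450 and 0.343 CPM with shNTC, from 18 and 13 counts, and 5.21 and 4.68 CPM with sheIF6. In polysomal RNA it was 2.07 and 1.23 CPM with shNTC and 3.71 and 6.47 CPM with sheIF6. The groups did not overlap in either fraction, but the polysomal gap was the narrower one, at 1.8 times between the lower sheIF6 and the higher shNTC library. The log2 change was 3.63 (SE 0.417) in cytoplasmic and 1.62 (SE 0.370) in polysomal RNA, and without the H69M libraries numbered 2 it was 3.54 and 0.84. In H69 the same gene was at 19.1 to 33.0 CPM in cytoplasmic and 31.0 to 50.8 CPM in polysomal RNA. NSG1 shares 91 exonic bases with STX18 on the opposite strand, and reads there cannot be assigned if strand was not used.

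STMN2, the tubulin-binding stathmin of growing neurites (chromosome 8, 79610814 to 79666175, plus strand), had the highest H69 level per exon length of the 8. In H69M cytoplasmic RNA it was at 4.10 and 5.06 CPM with shNTC and at 52.2 and 33.2 CPM with sheIF6. The polysomal values were 4.62 and 10 CPM with shNTC and 41.0 and 41.9 CPM with sheIF6. Both sheIF6 libraries stood far above the controls in each fraction, at log2 changes of 3.22 (SE 0.404) and 2.50 (SE 0.390). The polysomal control numbered 2, where the genes of H69 stood higher, was the high one of its pair, and without the H69M libraries numbered 2 the changes were 3.68 and 3.15. H69 cells held 56.0 to 93.6 CPM in cytoplasmic and 106 to 174 CPM in polysomal RNA.

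RIMS4, the short RIM protein of the presynaptic active zone (chr20:44751808-44810338, minus strand), had the largest ratio in both fractions. Cytoplasmic RNA of H69M held 0.500 and 0.396 CPM with shNTC, from 20 and 15 counts, and 7.55 and 3.87 CPM with sheIF6. Polysomal RNA held 0.934 and 1.38 CPM with shNTC and 16 and 9.82 CPM with sheIF6. The replicate numbered 1 was the higher sheIF6 library in both fractions, and neither fraction overlapped with its controls. The log2 change was 3.66 (SE 0.540) in cytoplasmic and 3.48 (SE 0.519) in polysomal RNA, and 3.92 and 4.09 without the H69M libraries numbered 2. In H69, RIMS4 ran from 7.75 to 12 CPM in cytoplasmic and from 10.1 to 24.9 CPM in polysomal RNA. It shares 506 exonic bases with KCNK15 on the other strand, a gene with 0 to 321 counts per library.

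**Figure D1:**
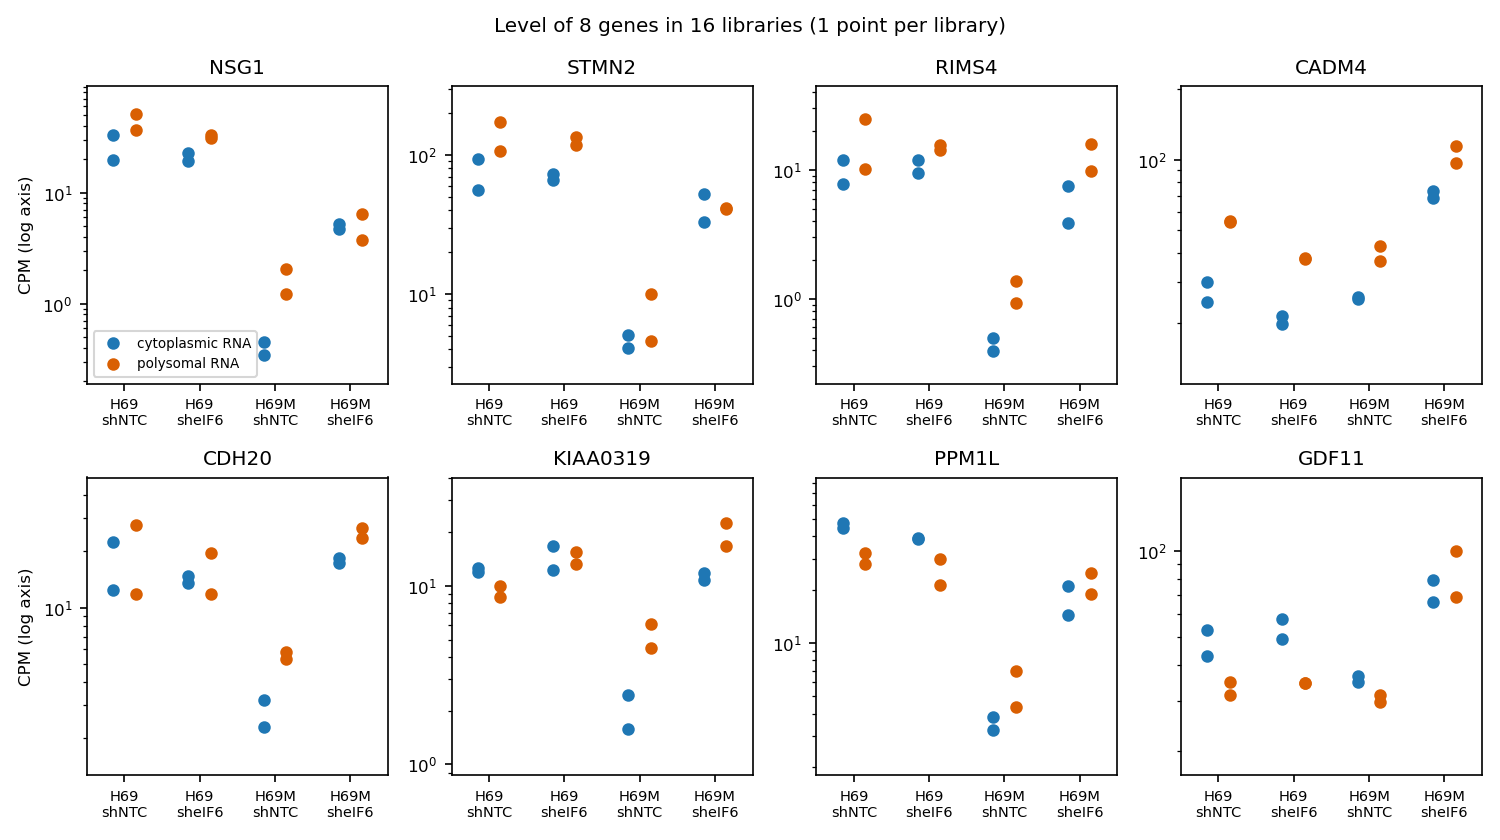
Level of each of the 8 genes in CPM (vertical log axis) in all 16 libraries, 1 point per library, by line and shRNA, with the fraction as colour. In H69M both sheIF6 points lie above both shNTC points of the same fraction in every panel, as the genes were chosen; in H69 the points of the shRNAs mostly overlap.

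CADM4, an immunoglobulin-type adhesion molecule of the synaptic cell adhesion family (chr19:43622368-43639839, minus strand), differed from the 3 genes above in that H69M controls already expressed it at the H69 level. Its cytoplasmic values were 25.9 and 25.2 CPM with shNTC and 73.4 and 68.8 CPM with sheIF6. Its polysomal values were 36.7 and 42.6 CPM with shNTC and 115 and 96.9 CPM with sheIF6. Replicates were close and the groups far apart, with log2 changes of 1.48 (SE 0.193) and 1.42 (SE 0.192). In H69 it was at 19.8 to 29.9 CPM in cytoplasmic and 37.7 to 54.4 CPM in polysomal RNA. CADM4 with sheIF6 in H69M therefore stood above all H69 libraries of the same fraction.

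CDH20, a type II cadherin (chr18:61333582-61555773, plus strand), was low in H69M controls and reached the H69 range with sheIF6. In cytoplasmic RNA of H69M it was at 3.22 and 2.29 CPM with shNTC and at 17.3 and 18.4 CPM with sheIF6. In polysomal RNA it was at 5.30 and 5.82 CPM with shNTC and at 23.5 and 26.8 CPM with sheIF6. CDH20 changed by a log2 of 2.69 (SE 0.431) in cytoplasmic and 2.18 (SE 0.420) in polysomal RNA, and the replicates of each group lay close together beside that gap. H69 libraries held 12.5 to 22.4 CPM in cytoplasmic and 11.8 to 27.6 CPM in polysomal RNA, a range that overlaps with H69M sheIF6.

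KIAA0319, the membrane glycoprotein (chr6:24544104-24646155, minus strand), was at 1.57 and 2.43 CPM with shNTC and 11.8 and 10.8 CPM with sheIF6 in H69M cytoplasmic RNA. Its polysomal level was 4.47 and 6.09 CPM with shNTC and 22.4 and 16.7 CPM with sheIF6. The rise of the sheIF6 libraries was clear of the controls in both, with log2 changes of 2.50 (SE 0.328) and 1.89 (SE 0.318), or 2.91 and 2.32 without the H69M libraries numbered 2. In H69 it was at 12 to 16.7 CPM in cytoplasmic RNA, just above H69M sheIF6, and at 8.65 to 15.4 CPM in polysomal RNA, below it.

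PPM1L, the phosphatase, which acts on stress-activated kinase pathways and on the ceramide transporter of the endoplasmic reticulum, spans a long gene on chromosome 3 (160755602 to 161078907, plus strand). H69M cytoplasmic RNA held 3.85 and 3.24 CPM with shNTC and 14.4 and 21.1 CPM with sheIF6. Polysomal RNA held 4.34 and 6.97 CPM with shNTC and 24.9 and 18.9 CPM with sheIF6. Here the higher sheIF6 library was number 2 in cytoplasmic and number 1 in polysomal RNA, while the fitted log2 change was 2.32 (SE 0.306) and then 1.95 (SE 0.301). Without the H69M libraries numbered 2 it was 1.91 and 2.52. In H69, PPM1L ran from 38.7 to 47.8 CPM in cytoplasmic and from 21.2 to 32.4 CPM in polysomal RNA.

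GDF11, the secreted ligand (chr12:55743280-55757278, plus strand), moved least in cytoplasmic RNA. It was at 35.0 and 36.6 CPM with shNTC and at 79.2 and 66.1 CPM with sheIF6 there, and at 31.4 and 29.8 CPM against 100 and 69.1 CPM in polysomal RNA. H69 held 43.0 to 57.7 CPM in cytoplasmic and 31.4 to 35.0 CPM in polysomal RNA. Controls of H69M lay below all H69 libraries in cytoplasmic RNA and close to them in polysomal RNA. The sheIF6 libraries of H69M lay above all H69 libraries of the same fraction. The log2 change was 1.02 (SE 0.221) in cytoplasmic and 1.47 (SE 0.223) in polysomal RNA. Leaving out the H69M libraries numbered 2 gave 1.19 and 1.67, and for CADM4 1.51 and 1.65 and for CDH20 2.43 and 2.14. GDF11 shares 386 exonic bases with SARNP on the opposite strand, which has 1427 to 5334 counts per library.

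Set per kilobase of exon, the 8 genes spanned a wide range of levels. In H69M cytoplasmic RNA with sheIF6, CADM4 was highest at 31.7 ± 1.46 CPM per kilobase (SD, n = 2), followed by STMN2 at 18.1 ± 5.68, GDF11 at 8.39 ± 1.07 and CDH20 at 4.33 ± 0.184. KIAA0319 (1.57 ± 0.101), PPM1L (1.43 ± 0.379), NSG1 (1.14 ± 0.0864) and RIMS4 (1.10 ± 0.500) followed on the same scale, and each of these overlapped with its neighbour in this order. With shNTC the level per kilobase was 11.4 ± 0.206 in CADM4, 4.14 ± 0.126 in GDF11 and 1.94 ± 0.289 in STMN2. The remaining 5 were at or below the 0.670 ± 0.160 of CDH20, down to 0.086 ± 0.0142 in RIMS4. STMN2 and GDF11 thus changed places between control and knockdown.

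The 8 genes reached the H69 level to different degrees. As a percent of the mean of the 4 H69 libraries of a fraction, H69M cytoplasmic RNA went from 1.67% with shNTC to 20.9% with sheIF6 in NSG1 and from 8.31% to 41.6% in PPM1L. STMN2 went from 6.36% to 59.3%, RIMS4 from 4.36% to 55.6% and KIAA0319 from 15% to 84.6%. These 5 stayed below every H69 cytoplasmic library with sheIF6. CDH20 went from 17.5% to 113%, within the H69 range, and CADM4 (107% to 298%) and GDF11 (70.6% to 143%) went above it.

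With sheIF6, the percentage was higher in polysomal than in cytoplasmic RNA for 5 genes and lower for NSG1, STMN2 and CADM4. In polysomal RNA it went from 4.37% to 13.5% in NSG1, from 5.5% to 31.1% in STMN2 and from 7.14% to 79.6% in RIMS4. PPM1L went from 20.3% to 78.5%, CDH20 from 31.4% to 142% and KIAA0319 from 44.8% to 166%. CADM4 went from 86.2% to 231% and GDF11 from 90.4% to 250%. NSG1 and STMN2 stayed below every H69 polysomal library, RIMS4, PPM1L and CDH20 overlapped with them, and KIAA0319, CADM4 and GDF11 lay above them.

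**Figure D2:**
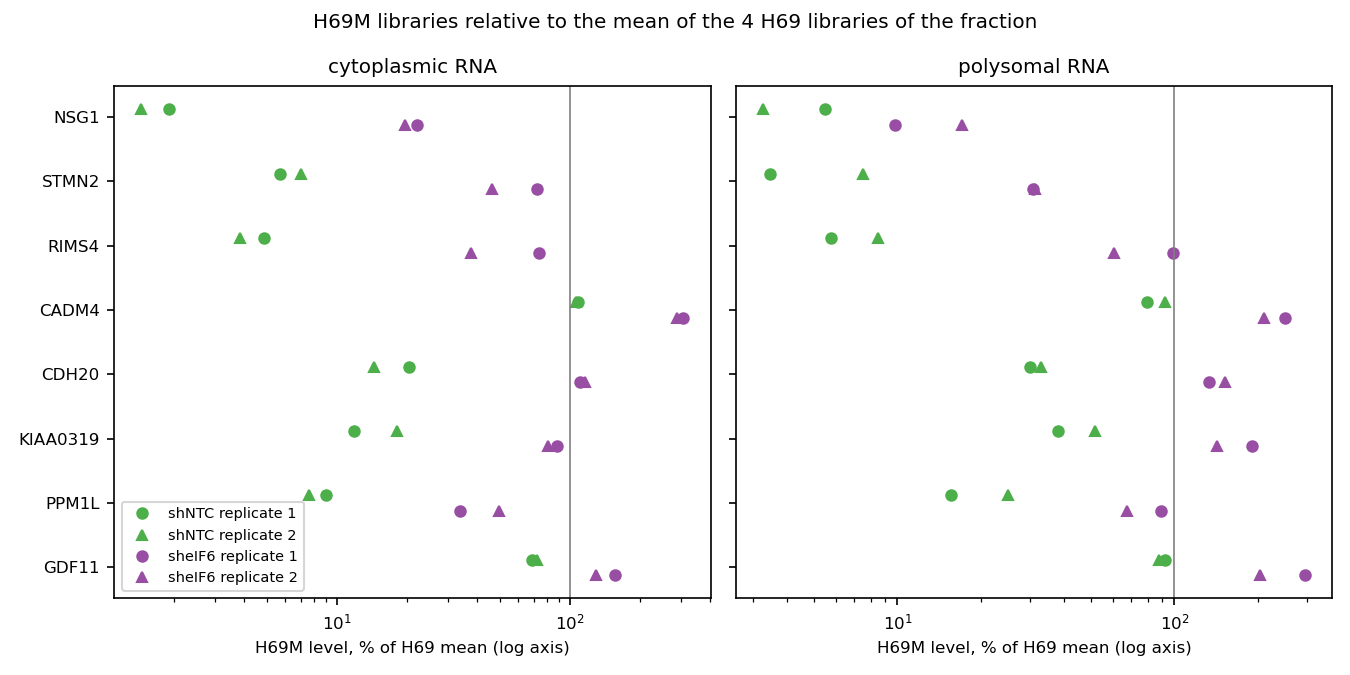
Level of each gene in every H69M library as a percent of the mean of the 4 H69 libraries of the same fraction (horizontal log axis), cytoplasmic RNA in 1 panel and polysomal RNA in the other, with the shRNA as colour and the replicate as marker. The vertical line is the H69 mean at 100%. CADM4, CDH20 and GDF11 with sheIF6 lie to its right in both panels, and NSG1, STMN2, RIMS4 and PPM1L to its left.

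Knockdown of EIF6 in H69 asks whether the same genes move in the other line, and it did not enter the choice. None of the 8 passed an adjusted p of 0.05 in H69 by edgeR's quasi-likelihood test, where 0% of all genes passed in cytoplasmic RNA and 0.00433% in polysomal RNA. At an unadjusted p under 0.05 there were 0 of the 8 in cytoplasmic RNA, 1 in polysomal RNA and 0 for the change of association, against 696, 956 and 383 of the 23100 genes. The count of these genes stayed at 0 under all 25 alternative settings, DESeq2 and limma-voom included. On simulated counts for this comparison, the test recovered 1 of 50 genes changed by 2-fold and 33 of 50 changed by 4-fold in cytoplasmic RNA, and 3 and 34 of 50 in polysomal RNA, so a change the size of that of GDF11 in H69M cytoplasmic RNA would mostly be missed.

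The H69 values ran both ways. The log2 change had a median of -0.18 over the 8 genes in cytoplasmic RNA and -0.23 in polysomal RNA, against -0.01 and 0 over all genes. CADM4 had the lowest value in each fraction, at -0.40 (SE 0.189, adjusted p = 1 by edgeR) in cytoplasmic and -0.52 (SE 0.189, adjusted p = 0.979 by edgeR) in polysomal RNA. Its cytoplasmic levels in H69 were 29.9 and 24.5 CPM with shNTC and 19.8 and 21.5 CPM with sheIF6, and its polysomal levels 54.4 and 54.2 against 37.7 and 37.8 CPM. CADM4 thus lay lower without overlap in both fractions of H69, opposite to H69M. PPM1L in cytoplasmic RNA (44.8 and 47.8 against 38.7 and 39.3 CPM, log2 -0.25) and NSG1 in polysomal RNA (50.8 and 36.5 against 32.9 and 31.0 CPM, log2 -0.45) were also lower without overlap. KIAA0319 was the reverse case in polysomal RNA, at 8.65 and 9.90 CPM with shNTC and 15.4 and 13.2 CPM with sheIF6 (log2 0.63, SE 0.308). Without overlap, 0 of the 8 were higher and 2 lower in H69 cytoplasmic RNA, where 16.7% and 17.6% of all genes were, and 1 was higher and 2 lower in polysomal RNA, where 11.4% and 11.3% were. For STMN2, RIMS4, CDH20 and GDF11 the shRNA groups overlapped in both fractions of H69. No difference between the lines in the knockdown change was tested, because the H69M side of it chose the genes.

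**Figure D3:**
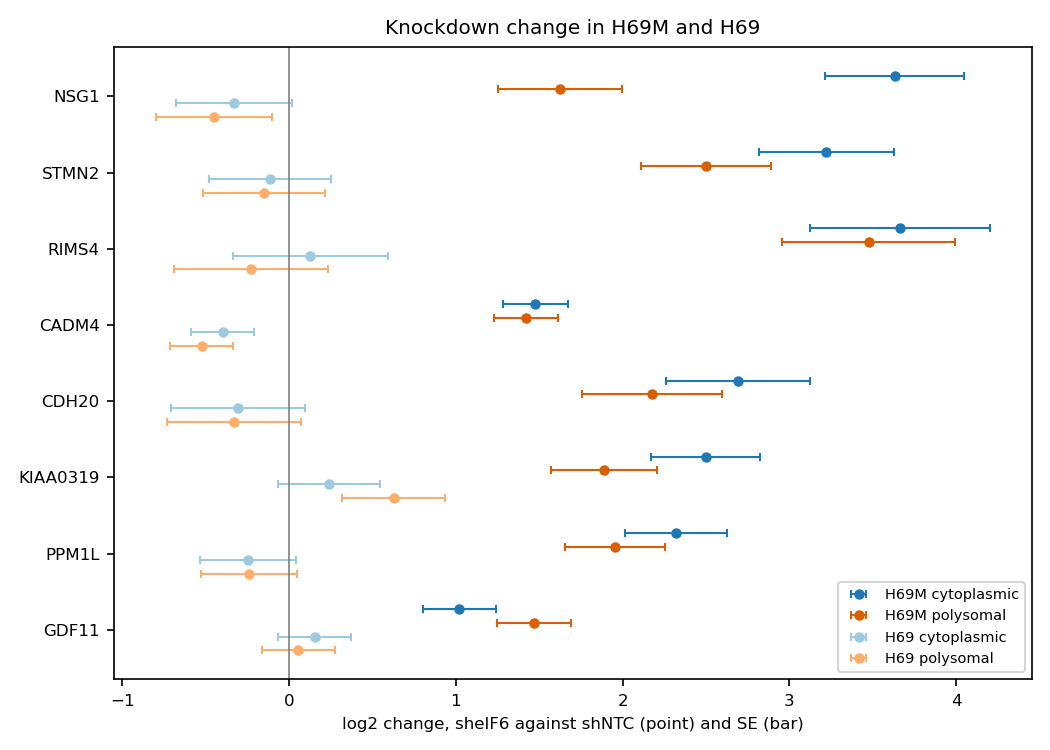
Fitted log2 change of each gene with sheIF6 against shNTC (point) with its standard error (bar), for both fractions of H69M and of H69. The H69M points lie between 1.02 and 3.66, and the H69 points between -0.52 and 0.63.

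The association change, here the log2 change in polysomal RNA less that in cytoplasmic RNA, was below 0 for 7 of the 8 in H69M, with a median of -0.44 against -0.01 over all genes. It is made of the values that chose the genes and is given without a test; 0% of all genes passed. NSG1 stood lowest at -2.01 (SE 0.540), as its polysomal level was already 2.07 and 1.23 CPM in controls against 0.450 and 0.343 CPM in cytoplasmic RNA. STMN2 (-0.72, SE 0.527), KIAA0319 (-0.61, SE 0.439), CDH20 (-0.51, SE 0.573), PPM1L (-0.37, SE 0.413), RIMS4 (-0.19, SE 0.681) and CADM4 (-0.06, SE 0.267) followed, and GDF11 was at 0.45 (SE 0.309). The median rested on the libraries numbered 2: it was -0.03 without H69M shNTC polysomal replicate 2, and -0.08 without all 4 H69M libraries numbered 2, where PPM1L stood at 0.60, RIMS4 at 0.18 and CADM4 at 0.13. In H69 the association change of the 8 had a median of -0.07 and ran from -0.35 (-0.355 in RIMS4) to 0.39 (0.385 in KIAA0319), with 0 of 8 passing where 0% of all genes did.

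Polysomal against cytoplasmic RNA, averaged over shNTC and sheIF6 within a line, compares the scaled level of each transcript between the fractions. In H69M it uses the libraries that chose the genes. The average weights both shRNAs equally, so a knockdown change of equal size in both fractions cancels, while one that differs between the fractions enters. In H69, 4 of the 8 passed (27% of all genes did, 12.8% higher and 14.3% lower): CADM4 and STMN2 were higher on polysomes and GDF11 and PPM1L lower. CADM4 had 54.4, 54.2, 37.7 and 37.8 CPM in the polysomal libraries against 29.9, 24.5, 19.8 and 21.5 CPM in the cytoplasmic ones, a log2 difference of 0.93 (SE 0.135, adjusted p = 0.000374 by edgeR), and all polysomal libraries lay above all cytoplasmic ones. STMN2 stood at 0.89 (SE 0.261, adjusted p = 0.0241 by edgeR), with 106 to 174 against 56.0 to 93.6 CPM. GDF11 stood at -0.58 (SE 0.155, adjusted p = 0.0149 by edgeR), with 31.4 to 35.0 against 43.0 to 57.7 CPM, and PPM1L at -0.61 (SE 0.204, adjusted p = 0.0417 by edgeR), with 21.2 to 32.4 against 38.7 to 47.8 CPM. NSG1 (0.66, adjusted p = 0.0639), RIMS4 (0.66), CDH20 (0.16) and KIAA0319 (-0.21) did not pass in H69.

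These H69 calls differed in how much they rested on single libraries. CADM4 passed under all 25 settings. STMN2 did not pass without any 1 of H69 shNTC cytoplasmic replicate 2, H69 sheIF6 cytoplasmic replicate 1 or 2, H69 sheIF6 polysomal replicate 1 or H69 shNTC polysomal replicate 1 (log2 0.69 to 0.93, adjusted p = 0.0615 to 0.0989 by edgeR). GDF11 did not without H69 shNTC cytoplasmic replicate 1, H69 sheIF6 cytoplasmic replicate 1 or H69 shNTC polysomal replicate 1 (-0.54 to -0.50, adjusted p = 0.0570 to 0.0757). PPM1L did not pass with RLE scaling (adjusted p = 0.0620) or no low-count filter (adjusted p = 0.0672). It was also lost without any H69 library other than H69 sheIF6 polysomal replicate 1, and without H69M shNTC cytoplasmic replicate 1 or 2 (-0.66 to -0.50, adjusted p = 0.0504 to 0.149). NSG1 passed in H69 without H69 shNTC cytoplasmic replicate 1 (0.88, adjusted p = 0.0453) or H69M shNTC polysomal replicate 1 (0.69, adjusted p = 0.0469). NSG1 also passed with RLE scaling (adjusted p = 0.0487), DESeq2 (adjusted p = 0.0260), limma-voom (adjusted p = 0.0216), H69 fitted alone (adjusted p = 0.0217) and without the H69M libraries numbered 2 (adjusted p = 0.0437).

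In H69M, 4 of the 8 were higher on polysomes and 0 lower, where 8.03% of all genes were higher and 8.65% lower (16.7% in all). RIMS4 had a log2 difference of 1.27 (SE 0.352, adjusted p = 0.0260 by edgeR), KIAA0319 of 1.10 (SE 0.222, adjusted p = 0.00545 by edgeR), NSG1 of 1.05 (SE 0.270, adjusted p = 0.0191 by edgeR) and CADM4 of 0.61 (SE 0.134, adjusted p = 0.00881 by edgeR). CDH20 (0.75, adjusted p = 0.0946), PPM1L (0.49, adjusted p = 0.130), STMN2 (0.32, adjusted p = 0.463) and GDF11 (-0.004, adjusted p = 1) did not pass. The average hides a difference between the shRNAs in NSG1: its polysomal and cytoplasmic levels were 1.65 ± 0.591 and 0.396 ± 0.0757 CPM with shNTC but 5.09 ± 1.95 and 4.95 ± 0.376 CPM with sheIF6 (SD, n = 2), so its value came from the controls, which had 18 and 13 cytoplasmic counts. CDH20 passed by DESeq2 (0.82, adjusted p = 0.0316). KIAA0319 passed under every setting and CADM4 under every setting that left out 1 library. RIMS4 did not pass without H69M shNTC cytoplasmic replicate 1 or 2, H69M sheIF6 cytoplasmic replicate 2, H69M sheIF6 polysomal replicate 1 or H69M shNTC polysomal replicate 2 (1.07 to 1.36, adjusted p = 0.0551 to 0.0940). NSG1 and RIMS4 did not by limma-voom (adjusted p = 0.134 and 0.123), nor NSG1 with H69M fitted alone (adjusted p = 0.0895). NSG1 did not without H69M shNTC cytoplasmic replicate 2, H69M sheIF6 cytoplasmic replicate 2, either H69M sheIF6 polysomal replicate 2 or H69M shNTC polysomal replicate 1 (0.82, to 1.01, adjusted p = 0.0616 to 0.0834). Without all 4 H69M libraries numbered 2, NSG1 (0.85, adjusted p = 0.177), RIMS4 (0.99, adjusted p = 0.281) and CADM4 (0.58, adjusted p = 0.0826) did not pass.

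In the main fit, the difference of polysomal against cytoplasmic RNA between the lines passed the limit only for KIAA0319 and PPM1L among the 8. Of all genes, 6.09% passed, with 2.69% higher and 3.4% lower in H69M. The H69M side includes the sheIF6 libraries that chose the genes. KIAA0319 differed by a log2 of 1.30 (SE 0.310, adjusted p = 0.0301 by edgeR), from -0.21 in H69 to 1.10 in H69M. PPM1L differed by 1.10 (SE 0.291, adjusted p = 0.0437 by edgeR), from -0.61 to 0.49. RIMS4 (0.61), CDH20 (0.59), GDF11 (0.58), NSG1 (0.38), CADM4 (-0.33) and STMN2 (-0.57) had adjusted p from 0.141 to 0.617. Neither call was firm against single libraries, and with no low-count filter neither passed (adjusted p = 0.0506 and 0.0658). Both were lost without any 1 of the 8 H69 libraries and without H69M shNTC cytoplasmic replicate 1, H69M sheIF6 cytoplasmic replicate 1, H69M sheIF6 polysomal replicate 1 or H69M shNTC polysomal replicate 2, and PPM1L also without H69M shNTC cytoplasmic replicate 2. Over those fits KIAA0319 stood at 1.16 to 1.41 (adjusted p = 0.0549 to 0.0948 by edgeR) and PPM1L at 0.90 to 1.23 (adjusted p = 0.0522 to 0.120 by edgeR).

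**Figure D4:**
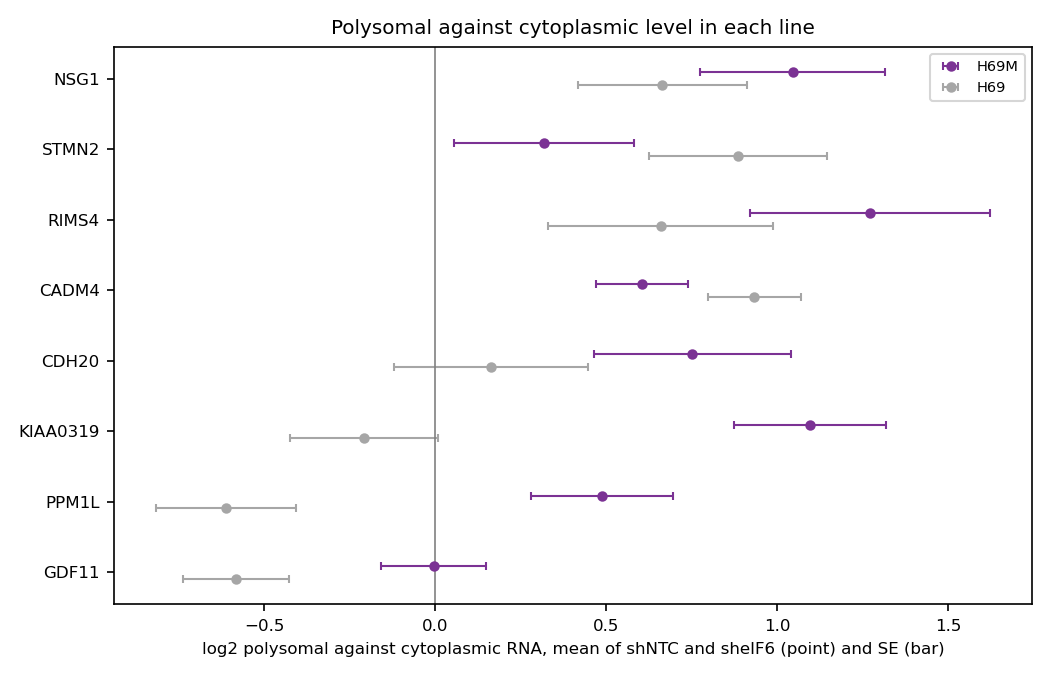
Log2 difference of polysomal against cytoplasmic RNA for each gene, averaged over shNTC and sheIF6 (point) with its standard error (bar), in H69 and in H69M. KIAA0319 (-0.21 and 1.10) and PPM1L (-0.61 and 0.49) lie farthest apart between the lines, and CADM4 lies to the right of 0 in both.

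Averaged over both shRNAs, H69M against H69 gave 7 of 8 genes past the limit in cytoplasmic RNA, 1 higher and 6 lower, where 46.5% of all genes passed (24.2% higher and 22.3% lower). NSG1 was lower in H69M by a log2 of -4.07 (adjusted p = 3.18e-07 by edgeR), RIMS4 by -2.68, PPM1L by -2.42, STMN2 by -2.36, KIAA0319 by -1.48 and CDH20 by -1.16 (adjusted p = 0.00531 by edgeR). CADM4 was higher by 0.85 (SE 0.135, adjusted p = 0.000218 by edgeR), and GDF11 was at 0.01 (adjusted p = 0.970). In polysomal RNA 6 passed, where 52% of all genes did (26.8% higher and 25.2% lower). NSG1 (-3.68), STMN2 (-2.93), RIMS4 (-2.06) and PPM1L (-1.32) were lower, and CADM4 (0.52) and GDF11 (0.59) higher. KIAA0319 (-0.18) and CDH20 (-0.57, adjusted p = 0.110) did not pass. CDH20 passed there without H69 shNTC polysomal replicate 2 (-0.81, adjusted p = 0.0236), and its cytoplasmic call was lost without the 4 H69M libraries numbered 2 (-1.06, adjusted p = 0.0798). Because the mean over shRNAs includes the risen sheIF6 libraries, these values lie between the separate percentages given above for each shRNA. In H69M controls alone, CADM4 was at 107% of the H69 mean in cytoplasmic and 86.2% in polysomal RNA, and GDF11 at 70.6% and 90.4%. The calls of CADM4 and GDF11 as higher in H69M thus include the rise with sheIF6 that chose them. Their adjusted p-values are no test of a difference between the control cells of the lines.

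Marker lists of cell states and of other cell types were read in the same libraries. The 16 neuroendocrine markers summed to 2770 to 5310 CPM in H69 and to 263 to 901 CPM in H69M. With knockdown in H69M they went from 375 and 329 CPM to 263 and 388 CPM in cytoplasmic RNA and from 539 and 901 CPM to 384 and 833 CPM in polysomal RNA, so the groups overlapped in each fraction. NCAM1 and SCG2 made up most of the cytoplasmic sum. In cytoplasmic RNA of H69M 4 of the 16 were higher without overlap and 1 lower, where 20.4% and 19.3% of all genes were. SYP, a synaptic vesicle protein, went from 7.42 and 7.41 to 13.6 and 13.7 CPM, and SEZ6 from 9.37 and 12.1 to 20.8 and 24.4 CPM. DLL3 went from 3.02 and 3.06 to 7.21 and 5.07 CPM, and PCSK1 from 14.5 and 10 to 14.9 and 32.7 CPM. The lower one was SRRM4, from 0.1 and 0.105 to 0.0477 and 0 CPM. In polysomal RNA 1 was higher (PCSK1) and 1 lower (GRP), where 15.9% and 16.7% of all genes were. The 12 non-neuroendocrine markers summed to 4570 to 7350 CPM in H69M and 99.2 to 280 CPM in H69. VIM was the largest part of the sum in H69M, and its levels overlapped between the shRNAs in both fractions. With knockdown in H69M the sum went from 5160 and 6230 to 6290 and 4570 CPM in cytoplasmic RNA, so the groups overlapped. In polysomal RNA it went from 7280 and 7350 to 4830 and 6800 CPM. Of the 12, 8 were lower without overlap with sheIF6 in both fractions of H69M (YAP1, AXL, CD44, REST, MYC, KRT17, CAV1 and CAV2) and 1 higher (HES1), where 19.3% and 16.7% of all genes were lower in the respective fraction. In cytoplasmic RNA YAP1, a coactivator of TEAD factors, went from 273 and 245 to 96.2 and 168 CPM, AXL, a receptor kinase, from 154 and 265 to 95.6 and 115 CPM, and CD44, a hyaluronan receptor, from 388 and 337 to 211 and 185 CPM. The 8 lower markers fell with sheIF6 where the 8 chosen genes rose, and their part in the results was not tested. REST, the repressor of neuronal genes, was at 44.5 and 35.8 CPM with shNTC and 16.7 and 31.5 CPM with sheIF6 in H69M cytoplasmic RNA, and at 29.1 and 21.7 against 19.0 and 18.4 CPM in polysomal RNA. REST thus lay lower without overlap in both fractions, but neither change passed (log2 -0.74 and -0.44, adjusted p = 0.641 and 0.900 by edgeR), and the part of REST in the result was not tested. Markers of glia and Schwann cells (6 genes) summed to 1.19 to 5.84 CPM and of blood (5 genes) to 0.875 to 6.67 CPM over all libraries. The 5 endothelial markers were at 8.46 to 29.9 CPM in H69M, and the 6 fibroblast markers, 3 of them collagens, at 10200 to 38400 CPM in H69M and 115 to 511 CPM in H69. In H69M the fibroblast sum was higher in the library numbered 2 of each group, and the part of these genes in the results was not tested.

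None of the nearest relatives of the 8 genes passed the limit in any knockdown comparison. RIMS1, RIMS2 and RIMS3, the other RIM family genes, had log2 changes of -0.78, -0.14 and -0.11 in cytoplasmic RNA, while on polysomes they stood at -0.13, 0.22 and 0.35. CADM1, the best expressed of the CADM genes, stood at -0.94 and -1.27, while CADM2 and CADM3 had group means below 1 CPM in H69M. CDH7, the cadherin next in sequence to CDH20, was at -1.48 and -1.001, KIAA0319L at 0.01 and 0.08, PPM1A at -0.33 and -0.10, and PPM1B at -0.83 and -0.57. NSG2, listed as HMP19, was at -1.83 and -2.04, and CALY at 0.04 and -0.11. Within the stathmins, STMN1 (259 ± 72.6 to 478 ± 78.5 CPM, log2 0.89, adjusted p = 0.223 by edgeR) and STMN3 (22.4 ± 3.32 to 56.4 ± 14.4 CPM, log2 1.33, adjusted p = 0.0766 by edgeR) had positive values beside STMN2 in cytoplasmic RNA but did not pass. Their polysomal values were 0.41 and 0.32 (0.315 in STMN3).

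In all, 9 lists of genes that work with the 8 were read the same way, and 0 of their genes passed in either fraction of either line, where 0.0909% of all genes were higher and 0.0649% lower in H69M cytoplasmic RNA, with 0.0303% higher and 0.0346% lower in polysomal RNA. Of 33 synaptic vesicle and active zone genes tested, 18 lay above 0 in H69M cytoplasmic RNA and 13 in polysomal RNA, with medians of 0.04 and -0.13. Neurite and neuronal cytoskeleton genes had 23 of 30 above 0 and a median of 0.52 in cytoplasmic RNA, and 16 above 0 and a median of 0.01 in polysomal RNA; the difference between the fractions was not tested. TUBB3, the neuronal beta-tubulin, went from 76.7 ± 29.5 to 181 ± 63.9 CPM (log2 1.24, adjusted p = 0.279 by edgeR), and GAP43, a growth cone protein, from 18.5 ± 4.17 to 29.8 ± 2.03 CPM (log2 0.69, adjusted p = 0.435 by edgeR). UCHL1, a ubiquitin hydrolase of neurons, went from 434 ± 24.7 to 730 ± 154 CPM (log2 0.75, adjusted p = 0.297 by edgeR). These 3 were named after their values were seen. The counts of some lists depended on the setting in H69M cytoplasmic RNA. For the neurite list it was 1 with no low-count filter, 2 by DESeq2, 4 without the 4 H69M libraries numbered 2, and 1 without H69M sheIF6 cytoplasmic replicate 2 or H69M shNTC polysomal replicate 1 or 2. For the synaptic list it was 2 without the libraries numbered 2.

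The lists around the adhesion and signalling members lay the other way or near 0. Neural adhesion genes had 10 and 11 of 24 above 0 and medians of -0.18 and -0.17 in H69M cytoplasmic and polysomal RNA. Other classical cadherins had 4 and 2 of 16 above 0 and medians of -0.67 and -0.54. By DESeq2, 1 gene of each of these lists passed as higher in cytoplasmic RNA, and 1 other cadherin did so without H69M sheIF6 cytoplasmic replicate 2 or without the libraries numbered 2. Signalling genes around GDF11, activin and TGF-beta had 3 and 7 of 25 above 0 (medians -0.23 and -0.19), and 1 of them passed in polysomal RNA by DESeq2 or without the libraries numbered 2, as 1 synaptic gene did without those libraries. Within that list ACVR2B, a type II receptor for GDF11, went from 7.42 ± 2.25 to 15.8 ± 2.66 CPM in polysomal RNA (log2 1.09, adjusted p = 0.269 by edgeR), and FURIN, a protease that cleaves such precursors, stood at -0.31 and -0.16; both were picked after their values were seen. PP2C phosphatases had 5 and 4 of 18 above 0 (medians -0.24 and -0.16), and the 3 substrate genes of PPM1L 0 and 1. Reading disability and neuronal migration genes had 4 and 3 of 9 above 0 (medians -0.09 and -0.17), and REST with its corepressors 5 and 6 of 11 (medians -0.04 and 0.06).

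**Figure D5:**
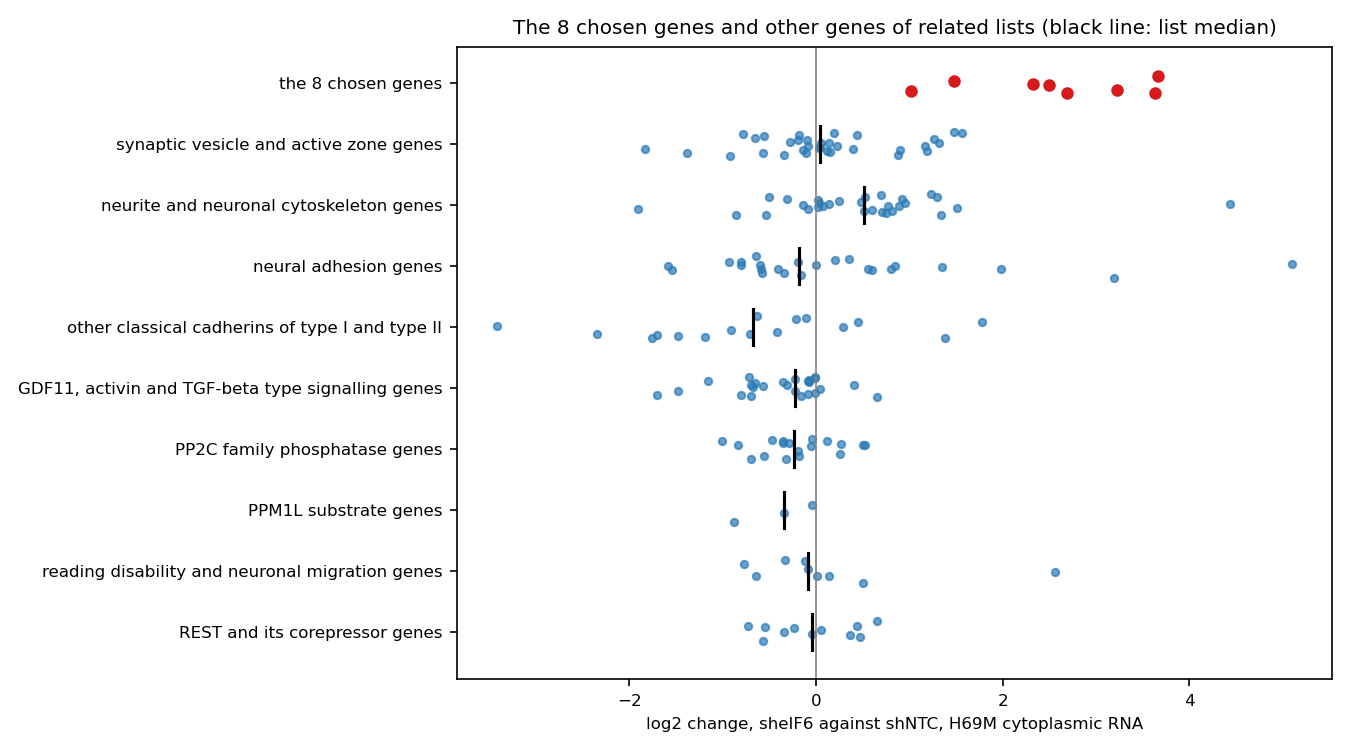
Fitted log2 change with sheIF6 against shNTC in H69M cytoplasmic RNA (horizontal axis) of each gene of the 9 related lists, 1 point per gene, with the 8 chosen genes in their own row and a black line at each median. The chosen genes lie from 1.02 to 3.66 by choice; the list medians run from -0.67 (other cadherins) to 0.52 (neurite genes).

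The correlation between the 8 genes is a description, since the choice of genes that rise with sheIF6 in H69M sets it there. Over the 8 H69M libraries the 28 pairs had Pearson correlations of log2 CPM from 0.749 (NSG1 with GDF11) to 0.993 (RIMS4 with CADM4), with a median of 0.941. Over the 8 H69 libraries the pairs ran from -0.866 (CADM4 with GDF11) to 0.915 (NSG1 with STMN2), with a median of -0.084. Over all 16 libraries, where the line enters too, the median was 0.74 and the lowest pair NSG1 with CADM4 at -0.014.

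Other genes with the pattern closest to the mean of the 8 were found among 13444 genes, and the same libraries that chose the 8 fixed this likeness. Over 16 libraries they were ANO4 (r = 0.92), CISH (0.917), SLC15A2 (0.911), TRIL (0.908), TMEM117 (0.899), SALL2 (0.898), SH2D3C (0.889) and ECEL1 (0.887). ANO4 went from 4.60 ± 2.59 to 17.5 ± 4.19 CPM in H69M cytoplasmic RNA, beside 20.8 ± 2.30 and 21.2 ± 1.41 CPM in H69. SALL2 went from 8.58 ± 0.309 to 21.3 ± 1.21 CPM, beside 21.2 ± 3.5 and 21.0 ± 1.54 CPM in H69.

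Over the 8 H69M libraries alone, the closest genes were SP9 (0.993), COL26A1 (0.992), EPHB1 (0.991), PIF1 (0.982) and SLC22A17 (0.982). COL26A1 had no count in any H69 library and went from 1.92 ± 0.108 to 18.6 ± 2.58 CPM in cytoplasmic and from 3.06 ± 0.726 to 29.7 ± 0.904 CPM in polysomal RNA of H69M. SP9 was at 0.929 ± 0.0995 to 1.86 ± 0.0235 CPM in the H69 groups and went from 2.54 ± 0.514 to 16.8 ± 4.64 CPM in H69M cytoplasmic RNA. SLC22A17 went from 2.35 ± 0.597 to 17.0 ± 2.91 CPM there, beside 1.54 ± 0.449 CPM in H69 controls. These 3 genes reached levels in H69M sheIF6 above those in H69, as CADM4 and GDF11 did.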

How the data were processed

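The authors deposited raw counts per gene for all 16 libraries. STAR, HTSeq and GRCh38 are named per the submitters' processing notes, without versions; the strand setting is not given in the sources used here, and the library kit named per the labels' protocols does not mark strand. Genes were matched by symbol, and positions and exon lengths came from GENCODE v29.

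Counts were filtered with filterByExpr (minimum count 10), scaled by TMM and fitted in edgeR 4.0.16 (R 4.3.3) by a robust quasi-likelihood model with 8 group means, 8 residual degrees of freedom and a common dispersion of 0.153. The Benjamini-Hochberg adjustment ran over 23100 genes, and the limit was 0.05. SE is the log2 change over the square root of F. The named genes were planned as the 8, EIF6, their relatives and up to 3 called genes per list. No list gene was called with knockdown in the main fit. TUBB3, GAP43, UCHL1, ACVR2B and FURIN were named outside this plan, after their values were seen. The members and lists were chosen with earlier results of these data known. Genes of H69 in H69M were those with at least 50 CPM in each of the 4 H69 libraries of a fraction and at most 0.1% of that in at least 1 H69M library. Alternatives were RLE, total library size, no low-count filter or one of 50 counts in 2 libraries, limma-voom (limma 3.58.1), DESeq2 1.42.0, 1 line alone, a replicate block, each library left out in turn and, added after seeing the data, leaving out the 4 H69M libraries numbered 2. Replicates differed by 24.8 to 244 times the variance of counting alone, so their spread and not depth set the precision. The fit was tested on simulated data.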

Additional observations from a re-analysis of the deposited data

Results flagged for a closer look

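In the main fit, KIAA0319 and PPM1L differed between the lines in how polysomal RNA stood against cytoplasmic RNA. The log2 differences were 1.3 and 1.1 (H69M minus H69), each past the limit in the test of the difference itself. The H69M side includes the sheIF6 libraries that chose the genes. Of 24 alternative settings, KIAA0319 did not pass in 13 and PPM1L in 15. In polysomal against cytoplasmic RNA, all 4 H69M polysomal libraries of these genes stood above the cytoplasmic library of the same shRNA and number, except for PPM1L in sheIF6 replicate 2 (18.9 against 21.1 CPM).

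In H69, both sheIF6 libraries were below both controls for CADM4 (log2 -0.4) and PPM1L (-0.25) in cytoplasmic RNA and for NSG1 (-0.45) and CADM4 (-0.52) in polysomal RNA, while in H69M each was higher. In H69, 17.6% of all genes were lower without overlap in cytoplasmic RNA and 11.3% in polysomal RNA, beside 2 of these 8 in each. PPM1L in polysomal and NSG1 in cytoplasmic RNA overlapped, and KIAA0319 was higher without overlap in H69 polysomal RNA, as in H69M. The difference between the lines was not tested, since the H69M change chose the genes, and none of the 4 H69 values passed the limit.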

How the results depend on the processing

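Alternative settings numbered 25. In H69M the polysomal median was 1.86 to 2.19 when 1 library was left out (2.19 without H69M shNTC polysomal replicate 2) and 2.23 without the 4 libraries numbered 2. The association median was -0.63 to -0.031 when 1 library was left out and -0.077 without those 4. When 1 library was left out, the association change ran from -0.602 to 0.365 in RIMS4, from -0.195 to 0.051 in CADM4 and from -0.673 to 0.003 in PPM1L. It turned positive for RIMS4 without H69M sheIF6 cytoplasmic replicate 1 (0.365), for RIMS4 (0.113), CADM4 (0.044) and PPM1L (0.003) without H69M shNTC polysomal replicate 2, and for RIMS4 (0.110) and CADM4 (0.051) without H69M sheIF6 polysomal replicate 2. Without the libraries numbered 2 it was 0.176 in RIMS4, 0.134 in CADM4 and 0.603 in PPM1L, and with total library size 0.066 in CADM4. Counts of polysomal against cytoplasmic calls were 1 to 5 in H69, 2 to 4 in H69M and 0 to 2 for their difference when 1 library was left out. In H69M the count was 2 with total library size, 2 by limma-voom and 1 without the libraries numbered 2. For the difference it was 0 with no low-count filter and 1 by limma-voom. Total library size moved the median of all genes to -0.51 in H69 and -0.22 in H69M (from -0.17 and -0.02), with STMN2 at 0.54 in H69 and RIMS4 at 1.08 and CADM4 at 0.40 in H69M, none past the limit. The H69M against H69 counts stayed at 6 or 7 in every setting.

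The labels do not state that the numbers pair the libraries. With the replicate block within each line, the polysomal calls were 5 in H69 (NSG1 added, adjusted p = 0.0312 by edgeR) and 5 in H69M (CDH20 added, adjusted p = 0.0188), and no other call of the 8 genes changed. In H69M cytoplasmic RNA 3 neurite, 1 synaptic and 1 neural adhesion gene then passed as higher with knockdown, and 1 neurite gene in polysomal RNA. Deviations of same-numbered libraries correlated at 0.168 to 0.280 among H69 groups, 0.172 to 0.578 among H69M groups and -0.107 to 0.046 across lines.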

Other observations

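By the number of genes past the limit, the lists around the 8 genes differed more between the lines than with knockdown. So did all genes tested: in cytoplasmic RNA 46.5% passed between the lines and 0.156% with knockdown in H69M. By the median, a larger difference between the lines did not hold for every list. In cytoplasmic RNA the other classical cadherins had a median of -0.10 between the lines and -0.67 with knockdown in H69M. The PP2C phosphatases had -0.22 and -0.24. Averaged over both shRNAs, 26 of 33 synaptic vesicle and active zone genes were lower in H69M cytoplasmic RNA and 2 higher, where 22.3% and 24.2% of all genes were. Neurite genes had 21 of 30 lower and 4 higher, and neural adhesion genes 17 of 24 lower and 3 higher. RIMS1 was an exception among the RIM genes: it was higher in H69M (log2 3.45, adjusted p = 0.00665 by edgeR), while RIMS2 (-2.58) and RIMS3 (-2.79) were lower. Signalling genes around GDF11, activin and TGF-beta went the other way, with 13 of 25 higher and 6 lower in cytoplasmic RNA. FURIN was higher in H69M (2.17) and ACVR2B lower (-2.56). CADM3 was at 3.26 ± 2.26 and 6.96 ± 3.90 CPM in H69 cytoplasmic RNA with shNTC and sheIF6, and CDH7 at 53.7 ± 4.82 and 32.0 ± 5.42 CPM.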
